A study of Mus musculus with 6 samples.

Results

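Hypoxia-inducible genes were followed in subcutaneous pancreatic tumours of lactating and control mice. The members are 10 genes of the response to low oxygen, namely Hif1a, Adm, Car9, Ndrg1, Egln1, Egln3, Bnip3, P4ha1, P4ha2 and Ankrd37, taken by symbol and read from the 21 probe sets that the platform annotation assigns to one of them alone. These are 10 of 18193 genes and 21 of 34945 single-gene probe sets on the array. All 10 genes passed the filter on low values, as did 20 of the 21 probe sets. The cells injected under the skin of the back were KPC1199, a line of mouse pancreatic ductal adenocarcinoma. 3 tumours came from lactating mice, in which the cells were given once the animal was pregnant or had started to nurse, and 3 came from control mice. All 6 tumours were collected 20 days after injection from animals of the same age, and each was hybridised to its own Affymetrix array. The labels give no strain, no further genotype and no split of the lactation group by pregnancy and nursing at injection, and all tumours derive from the same cell line.

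Cells sense oxygen through prolyl hydroxylases that use it to mark the alpha subunit of hypoxia-inducible factor (HIF) for destruction by the VHL ubiquitin ligase. When oxygen runs low the alpha subunit persists, pairs with ARNT and binds DNA at short sites with the core ACGTG or GCGTG, where it switches on genes of glycolysis, pH control, mitophagy, blood vessel growth and collagen maturation. Pancreatic ductal adenocarcinoma is known as a poorly perfused, matrix-rich tumour in which these genes are often expressed. HIF-1 alpha itself is controlled largely at the protein level, so Hif1a mRNA is not a readout of its activity.

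Promoter letters are shown for 4 of the 5 members with the same 3 highest arrays, a set picked after the values were seen and described further on. The 250 bases before the annotated start are read 5′ to 3′ on the gene's own strand. They are RefSeq sequences on GRCm38.p6, and capitals mark each ACGTG on either strand (CACGT on the other strand). Car9 lies at chr4:43506776-43507025 on the plus strand, Egln3 at chr12:54203875-54204124, Bnip3 at chr7:138909507-138909756 and Ankrd37 at chr8:45999851-46000100, these 3 on the minus strand.
Car9: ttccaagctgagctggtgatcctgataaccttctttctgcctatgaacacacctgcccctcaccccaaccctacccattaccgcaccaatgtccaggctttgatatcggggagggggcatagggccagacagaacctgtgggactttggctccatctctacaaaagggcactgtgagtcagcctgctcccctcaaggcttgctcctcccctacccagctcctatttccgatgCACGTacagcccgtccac
Egln3: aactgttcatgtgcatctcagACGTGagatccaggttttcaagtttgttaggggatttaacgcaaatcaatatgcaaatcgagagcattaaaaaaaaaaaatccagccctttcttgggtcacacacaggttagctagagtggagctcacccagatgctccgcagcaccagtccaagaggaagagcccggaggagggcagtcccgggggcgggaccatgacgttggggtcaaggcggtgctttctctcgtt
Bnip3: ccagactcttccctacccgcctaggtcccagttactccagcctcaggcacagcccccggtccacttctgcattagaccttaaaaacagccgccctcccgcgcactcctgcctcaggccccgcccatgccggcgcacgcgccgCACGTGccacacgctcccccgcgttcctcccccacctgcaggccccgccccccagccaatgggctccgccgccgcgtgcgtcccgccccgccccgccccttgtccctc
Ankrd37: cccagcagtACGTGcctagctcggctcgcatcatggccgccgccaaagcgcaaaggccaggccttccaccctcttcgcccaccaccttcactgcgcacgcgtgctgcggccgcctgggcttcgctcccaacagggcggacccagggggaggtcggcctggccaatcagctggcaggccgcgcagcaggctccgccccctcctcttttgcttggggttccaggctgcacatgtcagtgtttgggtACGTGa
Car9 held 1 match starting 18 bases before the start, and Egln3 held 1 at 229 bases. In Bnip3 the palindrome CACGTG gave overlapping matches on both strands, at 108 and 107 bases, and in Ankrd37 matches lay 241 and 6 bases before the start. Of the 10 members, 9 had a promoter in the table, and Ndrg1 was not analysed here. ACGTG on either strand occurred in 8 of these 9 windows and in 16.6% of 32851 promoter windows of the same length. GCGTG on either strand occurred in 6 of the 9 and in 28.2% of all windows. The windows were not matched for GC content, which ran from 50.8% (Egln3) to 86.0% (Egln1) in the 9, so these shares do not measure enrichment. Adm was the member without ACGTG, and it had 2 matches to GCGTG, at 90 and 54 bases. A match is a run of letters and does not show binding.

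Lactation was compared with control for every gene. 0 of the 10 members were called in limma at a Benjamini-Hochberg adjusted p under 0.05, where 0.0% of the 11622 genes tested were called, and 0 of the 10 had an unadjusted p under 0.05, against 2.27% of all genes. With 1 array left out this count was 2 members without control replicate 1 (Car9 and Hif1a), against 652 of all 11622 genes. It was 2 without lactation replicate 1 (Bnip3 and Egln3), against 385, and 1 without control replicate 3 (Adm), against 241. None of these members was called after adjustment. For 0 of the 10 were the lactation and control values free of overlap, against 6.9% of all genes (3.71% higher and 3.19% lower). The adjusted p was 0.9998 for each member. Of the 20 member probe sets tested, 0 were called in the fit over probe sets, as were 0.0% of all 20259. The median log2 difference was 0.14 over the members and -0.01 over all genes tested, and 8 of the 10 members had a difference above 0 (Egln1 barely so), as did 48.3% of all genes. With an array left out this median was lowest without lactation replicate 3 (0.01) and control replicate 2 (0.05) and highest without lactation replicate 1 (0.29) and control replicate 1 (0.22), and 6 of 10 were above 0 without either lactation replicate 3 or control replicate 2. The lean above 0 was not particular to the members. Of 8 ductal epithelial marker genes, summed further on, 8 lay above 0 with a median of 0.19. Of 8 fibroblast marker genes, 2 did, with a median of -0.02. Differences are on the log2(signal + 16) scale, which understates dim genes, and signals are linear MAS5 values. In simulated tables of these 11622 genes, with noise drawn separately for each gene, the fit recovered 64.8% of 2-fold and 90.6% of 4-fold changes. It made 10.4 false calls per table, and smaller changes were not simulated. These shares are over genes of every spread and do not give the recovery for the members, 9 of which varied more than the median gene. Spread that many genes share on an array was not simulated.

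**Figure D1:**
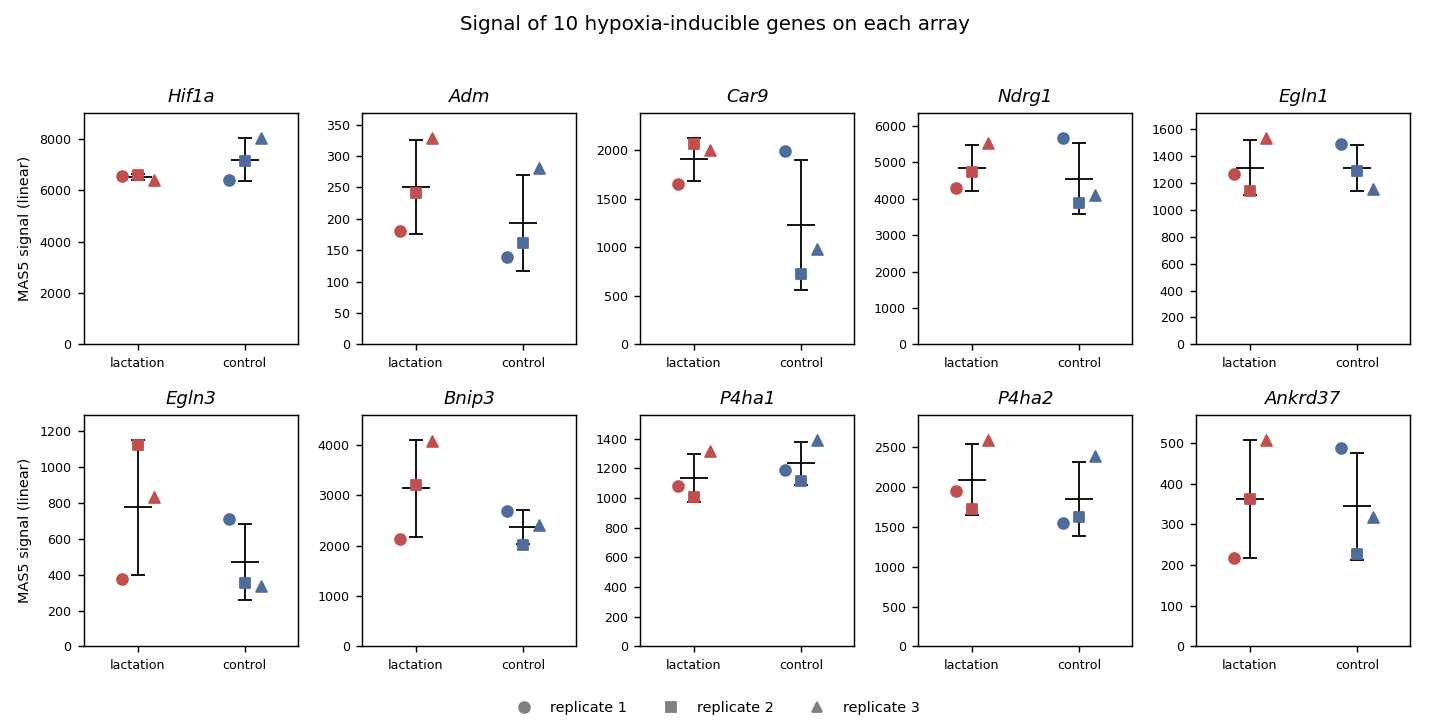
Linear MAS5 signal of the 10 genes on each array, with the y axis of each panel starting at 0. Points are arrays (the shape gives the replicate number), and the bar and whiskers are the group mean ± SD of 3 arrays; the lactation and control points overlap in every panel.

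The members differed more among tumours of one group than most genes did. Their within-group SD on the log2 scale had a median of 0.34 and ran from 0.12 (Hif1a) to 0.70 (Egln3), where the median of all genes tested was 0.16. 9 of the 10 lay above that median. Egln3 stood at percentile 96.96 of all genes tested, Ankrd37 at 94.99, Car9 at 94.6 and Adm at 92.0. Egln1 stood at 62.2, P4ha1 at 56.2 and Hif1a at 30.0. The spreads were not set against genes of like signal, and Adm and Ankrd37 are among the dimmer members. The intervals below depend on these spreads but not on them alone, as limma draws each gene's variance towards that of genes of like signal.

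Among the sensors and the factor itself, Hif1a, which encodes the oxygen-regulated alpha subunit of HIF-1, had signals of 6566, 6590 and 6386 on the lactation arrays, against 6388, 7116 and 8043 on the control arrays. The lactation arrays lay close together, and control replicate 1 fell within their range while the other controls lay above it. Hif1a averaged 6514 ± 112 in lactation and 7182 ± 830 in control tumours (SD, n = 3 each); the log2 difference was -0.13 (standard error 0.09, 95% interval -0.35 to 0.08). Its other probe sets gave -0.21 for both that passed the filter, and -0.38 for one that was below it. All 4 Hif1a probe sets had a lower mean in lactation, and all 4 intervals held 0. The difference was -0.05 with control replicate 3 left out and -0.22 with control replicate 1 left out.

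Egln1, which encodes PHD2, the main prolyl hydroxylase acting on HIF alpha subunits and itself a HIF target, had signals of 1266, 1134 and 1533 in lactation and 1486, 1289 and 1149 in control tumours. The groups covered nearly the same range, with means of 1311 ± 203 in lactation and 1308 ± 170 in controls. The log2 interval of the difference ran from -0.34 to 0.34. The sign of so small a difference was not fixed: it was -0.09 with the other probe set of Egln1, -0.046 with the arrays centred on their medians, -0.12 when lactation replicate 3 was left out and 0.10 when lactation replicate 2 was. Leaving out control replicate 2 or control replicate 3 also put it below 0.

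Egln3 encodes PHD3, a prolyl hydroxylase that is strongly HIF-inducible and acts back on HIF. Its signals were 373, 1120 and 831 in lactation, against 712, 355 and 338 in controls. The lactation arrays spanned 3.0-fold and the controls 2.1-fold. Lactation replicate 1 lay among the low controls and control replicate 1 lay near lactation replicate 3. Egln3 averaged 775 ± 377 in lactation and 468 ± 211 in control tumours. The log2 difference was 0.66 (standard error 0.44, interval -0.38 to 1.69, limma unadjusted p = 0.178). It was 0.33 without lactation replicate 2 and 1.10 without lactation replicate 1. The other Egln3 probe set gave 0.60 and had the same 3 highest arrays.

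Of the effector genes, Car9 had the largest difference. It encodes carbonic anhydrase IX, an enzyme on the cell surface that helps hypoxic tumour cells export acid. Signals were 1655, 2065 and 2004 in lactation, against 1993, 725 and 981 in controls. The lactation arrays were all at the upper end, and control replicate 1 stood among them, well above the other controls. Car9 averaged 1908 ± 222 in lactation and 1233 ± 670 in controls. The log2 difference was 0.75 (standard error 0.34), or 1.68-fold with an interval from 0.97 to 2.91-fold, and limma's unadjusted p was 0.0620. Leaving out control replicate 1 gave 1.16, and leaving out control replicate 2 gave 0.44. The control arrays carried nearly all of the spread, 2.75-fold from lowest to highest, against 1.25-fold in lactation.

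Bnip3, a mitochondrial receptor for mitophagy, had signals of 2133, 3205 and 4072 in lactation, against 2681, 2012 and 2418 in controls. Lactation replicates 2 and 3 were above all controls and lactation replicate 1 was below 2 of them. The means were 3137 ± 971 in lactation and 2371 ± 337 in controls, and the log2 difference was 0.36 (interval -0.19 to 0.91), 0.15 without lactation replicate 3 and 0.61 without lactation replicate 1. Ankrd37, an ankyrin repeat gene used in hypoxia signatures, had 218, 362 and 508 in lactation, against 487, 226 and 319 in controls. Both groups covered about the same span. Its log2 difference of 0.06 (interval -0.78 to 0.91) turned to -0.21 when lactation replicate 3 was left out and to -0.19 when control replicate 2 was, and was 0.37 when lactation replicate 1 was.

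Adm encodes adrenomedullin, a secreted peptide that dilates vessels and acts on endothelium. Its signals were 181, 241 and 329 in lactation, against 139, 162 and 281 in controls. Both groups had their highest value in replicate 3, and the means were 250 ± 74.8 in lactation and 194 ± 76.2 in controls. The log2 difference was 0.37 (interval -0.36 to 1.09), with a value of 0.16 without lactation replicate 3 and of 0.65 without control replicate 3. The other Adm probe set gave 0.59, with an interval from -0.05 to 1.23 in the fit over probe sets, and the same order of the 6 arrays.

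Ndrg1, a stress- and differentiation-linked gene long used as a hypoxia marker, had 5 probe sets. They gave log2 differences from 0.08 to 0.12, and all their intervals held 0. The one used for the gene had signals of 4281, 4745 and 5515 in lactation, against 5677, 3882 and 4091 in controls. Control replicate 1 was the highest array, and the lactation arrays lay between it and the other controls. The interval of the difference ran from -0.28 to 0.49. The difference was 0.27 with control replicate 1 left out, and near 0 with control replicate 2 left out.

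**Figure D2:**
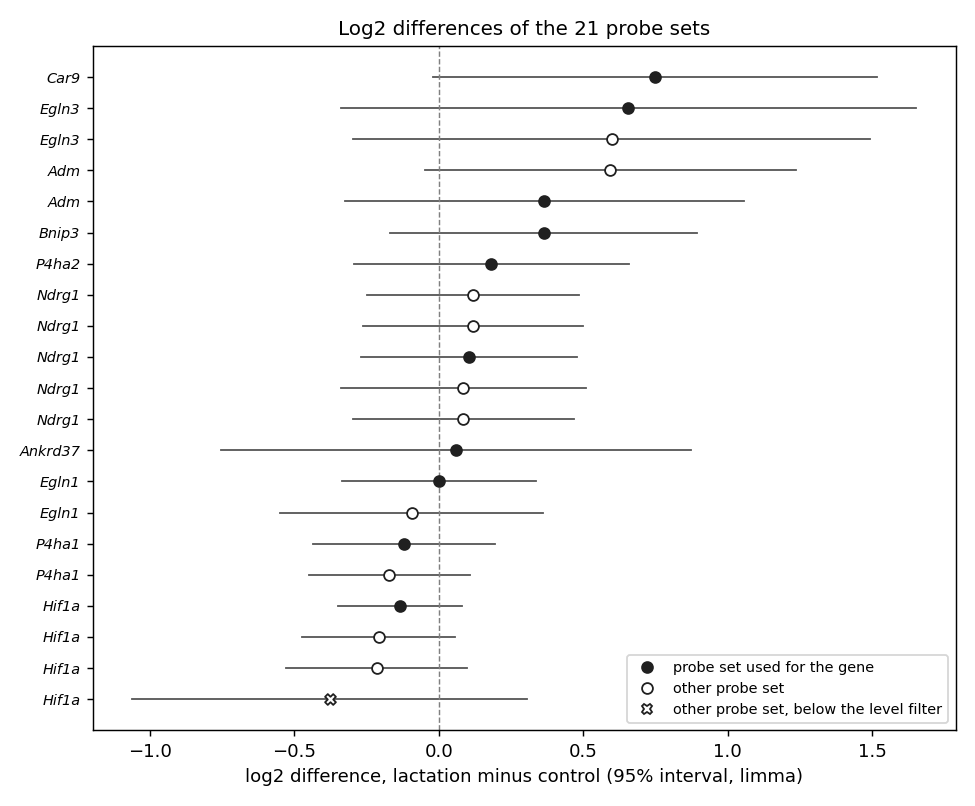
Log2 difference of the 21 probe sets (x axis, lactation minus control), with lines for the 95% interval, sorted by gene (y axis). Filled points mark the probe set used for a gene, open points the others and the cross the Hif1a probe set below the filter; probe sets of one gene lie close to each other, and each of the 21 intervals reaches over 0.

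P4ha1 and P4ha2 encode alpha subunits of collagen prolyl 4-hydroxylase, which makes collagen helices stable. P4ha1 had signals of 1083, 1006 and 1317 in lactation, against 1189, 1117 and 1394 in controls. Replicate 3 was the highest of each group. The log2 difference was -0.12 (interval -0.44 to 0.20), and -0.17 with its other probe set. Leaving out control replicate 3 gave -0.03, lactation replicate 2 -0.04, control replicate 2 -0.19 and lactation replicate 3 -0.23. P4ha2 had 1957, 1730 and 2597 in lactation, against 1545, 1630 and 2386 in controls, again with replicate 3 highest in each group. Its difference was 0.18 (interval -0.31 to 0.67). Leaving out lactation replicate 3 gave 0.02, control replicate 1 gave 0.07, and control replicate 3 gave 0.38. Lactation and control values overlapped for both subunits.

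Several members had the same 3 highest arrays, and these came from both groups. In 5 of the 10 members (Car9, Ndrg1, Egln3, Bnip3 and Ankrd37) the 3 highest arrays were lactation replicates 2 and 3 and control replicate 1, in whichever order, where 6.37% of the genes tested had those 3 arrays highest. This set of arrays was picked after the values were seen, and the share is a description. It was read from the probe set used for each gene. Another Ndrg1 probe set had lactation replicate 1 (957) above lactation replicate 2 (893), so its 3 highest arrays differed. Lactation replicate 3 had the highest signal of 5 members and was among the 3 highest in 9. Control replicate 2 had the lowest signal of 3 members. Adm, P4ha2 and P4ha1 had lactation replicate 3 and control replicate 3 as their 2 highest arrays, and Hif1a had control replicates 3 and 2.

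**Figure D3:**
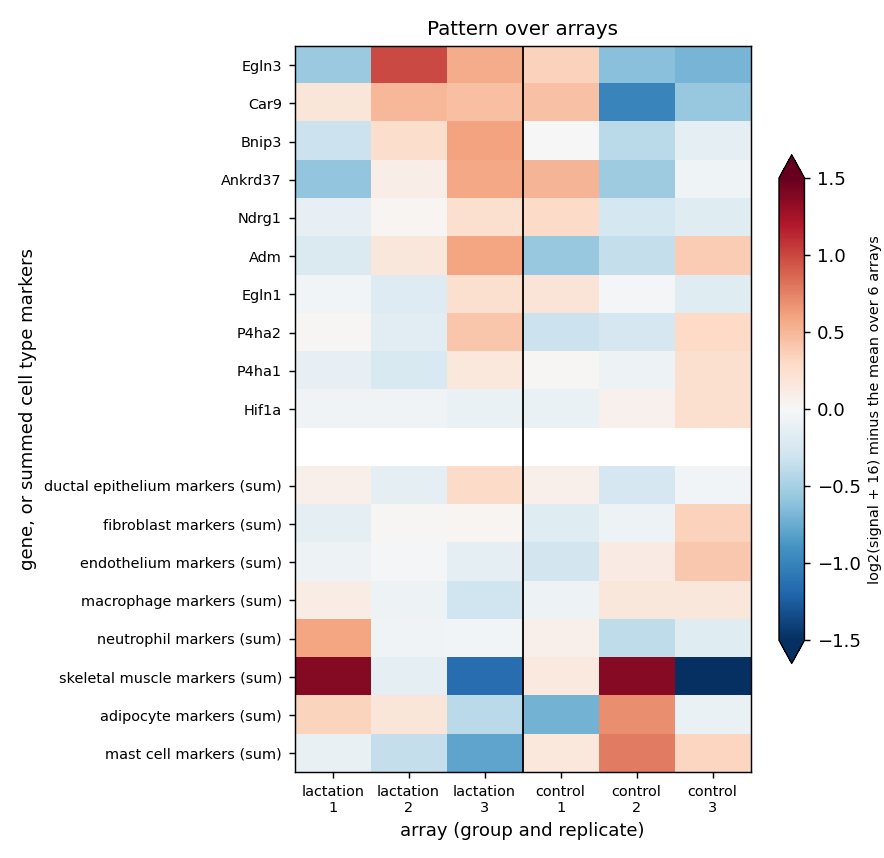
Log2(signal + 16) of each gene, and of the summed signal of cell type markers, minus its mean over the 6 arrays (colour). Columns are arrays with lactation left of the line; Egln3, Car9, Bnip3, Ankrd37 and Ndrg1 are highest on lactation 2 and 3 and control 1, and muscle markers are highest on lactation 1 and control 2.

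Cell type markers moved across the same arrays. The 8 ductal epithelial markers, listed for the tumour cells, were above the array median on all 6 arrays. They are epithelial genes, and these data do not tell tumour epithelium from host epithelium. The summed signal of the 8 ran from 71877 to 97644 in lactation and from 66961 to 84200 in controls. Lactation replicate 3 was highest in this sum and control replicate 2 lowest, as in Bnip3 and in no other member. The 7 skeletal muscle markers summed to 71321, 24768 and 12423 in lactation and to 30320, 70608 and 9154 in controls, so lactation replicate 1 and control replicate 2, both low in Egln3, Bnip3 and Ankrd37, had the most muscle signal, while control replicate 3, low in Egln3 and Car9, had the least. The 8 fibroblast markers ran from 78210 to 87522 in lactation and from 75742 to 109452 in controls, highest in control replicate 3, where P4ha1 and Hif1a were highest too. The 8 endothelial markers ran from 4048 to 4365 in lactation and from 3696 to 5925 in controls, and the 8 macrophage markers from 28442 to 37669 in lactation and from 33240 to 39452 in controls. The 5 neutrophil markers ran from 5377 to 8437 in lactation and from 4282 to 5891 in controls, and the 4 adipocyte markers from 3106 to 5187 in lactation and from 2525 to 6710 in controls. The 6 mast cell markers ran from 1371 to 2201 in lactation and from 2662 to 4098 in controls, with no overlap of the sums. Gene by gene, 4 of these 6 were lower without overlap, against 3.19% of all genes tested. Of the adipocyte markers 2 reached the array median on all 6 arrays, as did 4 neutrophil and 4 mast cell markers. The dimmest marker was the adipocyte gene Lep, at 2.04 to 5.86 on the 6 arrays and below the filter. The part of these cell types in the members' values was not tested. In such bulk tissue fewer cells of a type and less RNA per cell cannot be told apart. Without the most muscle-rich array of each group, a choice made after seeing the data, 0 of 10 members were called and the median difference was 0.13, with 0.95 for Egln3, 0.53 for Car9 and 0.50 for Bnip3.

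Other genes of the oxygen-sensing machinery gave small differences. Of 14 listed genes 13 were tested, and 0 were called higher and 0 lower; 9 had a difference above 0 and the median was 0.06. Epas1, the HIF-2 alpha gene, averaged 2969 ± 294 in lactation and 3364 ± 357 in controls, a log2 difference of -0.18 (interval -0.44 to 0.08). Hif1an, which encodes the asparaginyl hydroxylase FIH that blunts HIF activity, measured 548 ± 70.2 in lactation and 498 ± 34.0 in controls, a difference of 0.13. Eloc, an elongin of the VHL ligase, had a difference of -0.11. Crebbp, a HIF coactivator gene named after its values were seen, was the only tested gene of the 13 whose groups did not overlap. Of all genes tested, 6.9% had groups without overlap. Crebbp had signals of 1896, 1906 and 1965 in lactation against 2078, 2004 and 2128 in controls and a difference of -0.11.

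Further HIF targets showed small differences as well. Of 35 listed genes 30 were tested, with 0 called higher and 0 lower, 19 above 0 and a median difference of 0.04. Of these 30, 1 had an unadjusted p under 0.05, where 2.27% of all genes tested did. This was Cxcr4, the receptor for the chemokine CXCL12. It had signals of 985, 1172 and 1145 in lactation, against 1130, 1649 and 1762 in controls, and a log2 difference of -0.43 (standard error 0.18, limma unadjusted p = 0.0433). Control replicate 1 fell within the lactation range. Stc1, a secreted glycoprotein gene, had a difference of 0.25 (interval -0.46 to 0.97). It was dim, with signals from 88.1 to 197 and 4 of 6 arrays at or above their array's median. Aldoc, a glycolytic aldolase, had a difference of 0.24 (interval -0.15 to 0.62). Mxi1, a MYC antagonist gene, was the 1 gene of the 30 whose groups did not overlap, against 6.9% of all genes tested. It had 1363, 1351 and 1391 in lactation against 1205, 1216 and 1261 in controls and a difference of 0.16. Pdk1, which restrains pyruvate entry into mitochondria, Ero1a, an oxidase of protein folding, Ldha, lactate dehydrogenase A, and Wsb1 were the 4 of the 30 with the same 3 highest arrays as Egln3. Of all genes tested, 6.37% had those 3 arrays highest. Ero1a read 888, 1281 and 1430 in lactation against 1141, 917 and 1010 in controls. Mxi1, Pdk1, Ero1a, Ldha and Wsb1 were named after their values were seen.

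**Figure D4:**
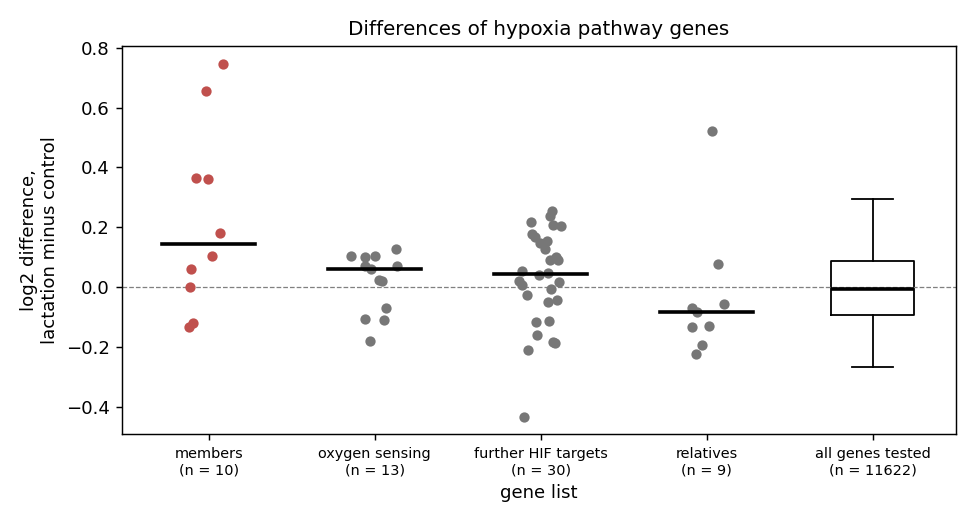
Log2 difference (y axis, lactation minus control) of each tested gene by list, with the median as a bar; the box on the right gives all 11622 genes tested, with quartiles and whiskers at percentiles 5 and 95. Medians were 0.14 for the members, 0.06 for oxygen sensing, 0.04 for further HIF targets and -0.08 for paralogs and partners of the members.

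Paralogs and partners of the members gave 0 calls among 9 tested of 11, with 2 above 0 and a median of -0.08. Car2, a cytosolic carbonic anhydrase, read 1133, 1166 and 2645 in lactation against 1171, 977 and 1023 in controls, a difference of 0.52 carried by lactation replicate 3. P4ha3, a further collagen hydroxylase subunit, and P4hb, the beta subunit they share, had differences of -0.08 and -0.05. Ndrg2 read 1686, 522 and 385 in lactation against 784, 1881 and 368 in controls, with its highest signals on the 2 arrays rich in muscle markers, and a difference of -0.22. Ndrg3 and Ndrg4 had -0.13 and -0.19. For the adrenomedullin receptor Calcrl and its partners Ramp2 and Ramp3 the differences were -0.07, -0.13 and 0.08. Car14 and Adm2 were below the filter, with signals up to 62.9 and 135.

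The mean log2 level of the 10 members was 10.20, 10.52 and 10.76 in lactation, against 10.46, 10.04 and 10.31 in controls. Lactation replicate 3 was highest and control replicate 2 lowest. By root mean square distance over the 6 arrays, after centring, the genes outside the lists closest to this mean were Lmnb2, a nuclear lamin (0.044), Syne2, a nuclear envelope linker (0.048), Amotl2, an angiomotin family member (0.049), Gm20324 (0.051) and Ccdc120 (0.065), where the median distance of all genes tested was 0.27. Among the members, which enter the mean themselves, Ndrg1 (0.13) and Bnip3 (0.13) lay closest and Egln3 (0.49) farthest.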

How the data were processed

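Total RNA from 6 tumours was hybridised as biotin-labelled cRNA to 3′ Affymetrix arrays, per the labels' protocols. The deposited intensity values are linear MAS5 signals, per the submitters' processing notes (version: not given in the sources used here). With 2% trimmed from both ends, every array of the deposited table had a mean of 500.0, so the arrays were already scaled. Median signals ran from 99.3 to 111.0, and the number of arrays limits the precision. No scanner file or detection call was used.

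Probe sets were named by the platform annotation, and symbols were compared with RefSeq through Entrez identifiers (34741 of 34945 matched, 0 changed). Left out were control probe sets, 932 probe sets with several names and 9211 with none. Values were log2(signal + 16), with no further normalization. A gene took the values of its brightest probe set on average, and was kept where at least 3 of 6 arrays reached their array's median. The groups were compared with limma 3.58.1 (R 4.3.3; lmFit, then eBayes with trend), over all 11622 genes, and separately over 20259 probe sets. Other tables and plots used Python 3.11.15. The labels call the tumours biological replicates; same-numbered tumours were not paired (deviations correlated at 0.14, -0.08 and 0.27).

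The members, gene lists and rules were chosen with earlier results of these data known. All members and all paralogs and partners are named, and of each other pathway list the 3 genes with the largest difference; further names are marked as chosen after their values were seen.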

Additional observations from a re-analysis of the deposited data

How the results depend on the processing

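Of the 11622 genes tested in limma 0 were called, and 264 had an unadjusted p under 0.05. That number was 577 with no filter, and with an array left out it ran from 137 without lactation replicate 3 to 652 without control replicate 1, with 413 without lactation replicate 2. Among the members, unadjusted p values under 0.05 appeared without control replicate 1 (Car9 0.000404, Hif1a 0.0408), without lactation replicate 1 (Bnip3 0.00934, Egln3 0.0191), without control replicate 3 (Adm 0.0499), with array weights (Car9 0.0322) and without the most muscle-rich array of each group (Bnip3 0.0220), in limma and not past the adjustment. Over all 11622 genes, those with such a p numbered 652, 385, 241, 382 and 264 in these settings, in the same order. The counts of called genes, members, member probe sets and further pathway genes stayed at 0 under quantile normalization, centring on array medians, added constants of 1 and 64, no filter, a filter at the 70th percentile, averaging all probe sets of a gene (not run for single probe sets), no trend, robust eBayes, array weights and each array left out. The filter at the 70th percentile left 8 members, without Adm and Ankrd37. The median difference of the members, 0.14, ran from 0.10 to 0.26 under these settings and from 0.01 to 0.29 with an array left out. With the replicate block, 0 genes were called and 289 had an unadjusted p under 0.05. In this balanced design the block cannot change a fitted difference. Neither do no filter, no trend or robust eBayes, so signs and the median of 0.14 were fixed there. The block changed the standard errors, from 0.31 to 0.17 for Adm, 0.21 to 0.10 for P4ha2 and 0.44 to 0.49 for Egln3. Not every tumour correlated best with its own number. The difference of Egln1 was -0.046 with centred arrays and -0.046 with its probe sets averaged, and -0.12 to 0.10 with an array left out; that of Ankrd37 ran from -0.21 to 0.37 with an array left out. The causes were not tested. The other 8 members kept their sign under every setting run. Without detection calls the signal over background of each probe set is unknown here.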
